A study of Mus musculus with 16 samples.

Results

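Double transgenic thymic lymphomas, from mice that carry both the Lck-Dlx5 and the Lck-MyrAkt2 transgene, were compared with normal thymic T cells of wild-type (WT) littermates. The members were chosen by the genotype in the labels: 4 double transgenic tumors and 3 WT samples, 7 of the 16 samples of the series, with 1 expression array each. The double transgenic mice were 2 months old. Tumors 1 and 2 descended from Dlx5 founder line 47 (F47) and tumors 3 and 4 from Dlx5 founder line 86 (F86), and the titles name line 420 as the MyrAkt2 parent of the F47 tumors and give no MyrAkt2 line for the F86 tumors. The WT littermates of the Lck-Dlx5 mice carried no transgene and were 9 months old, so age goes with genotype and their effects cannot be told apart. The 9 other samples were tumors with 1 of the transgenes, namely 3 Lck-Dlx5 tumors at 9 months (1 each of founder lines 47, 63 and 86) and 3 Lck-MyrAkt2 tumors each of lines 72 and 420 at 5 months, and they entered the fit as groups of their own. The promoter of Lck, a kinase gene of developing thymocytes, drives Dlx5 as well as MyrAkt2. No source used here says that T cells were sorted, so fewer cells of a type and less RNA per cell cannot be told apart.

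Thymocytes pass through a CD4/CD8 double-negative and a double-positive stage before they mature into CD4 or CD8 single-positive T cells, and thymic lymphomas arise where that course is interrupted. Dlx5 is a homeobox transcription factor known from skeletal and forebrain development and is not normally used by thymocytes. Akt2 is a serine/threonine kinase downstream of phosphatidylinositol 3-kinase (PI3K), and MyrAkt2 carries a membrane anchor that keeps it active.

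All values are log2 intensities as deposited, and every difference is the tumor mean minus the WT mean on that scale, followed by its standard error (SE). A gene was called when its adjusted p from limma was under 0.05 among the 12933 genes tested. Array medians ran from 6.32 to 6.46, and the size of a fold against a level below them is uncertain. Across the tested genes the F47 tumors correlated with each other at 0.958, the F86 tumors at 0.980, an F47 with an F86 tumor at 0.909 to 0.948, and WT arrays at 0.992 to 0.993. Tumor 2 stood farthest from WT, at 0.866 to 0.872, while the range was 0.907 to 0.911 for tumor 1 and 0.927 to 0.935 for the F86 tumors. Sex-linked transcripts go with the founder line. Xist, which is made from the inactive X chromosome, lay at 5.65 and 4.94 in the F47 tumors and at 12.57 and 12.37 in the F86 tumors, against 5.80, 5.15 and 5.61 in WT. The Y-linked gene Kdm5d lay at 8.99 and 8.67 in the F47 tumors and at 4.08 and 3.76 in the F86 tumors, against 9.42, 9.63 and 9.50 in WT. Eif2s3y, also on Y, was low in all 4 tumors, at 6.78 and 5.25 (F47) and 4.64 and 4.62 (F86), against 9.89, 10.40 and 10.45 in WT. Founder line, sex-linked transcripts and the named MyrAkt2 line therefore cannot be told apart in any difference between the F47 and the F86 tumors. For Xist and Kdm5d the WT arrays resembled the F47 tumors and not the F86 tumors. Genotype and sex-linked transcripts therefore also cannot be told apart in any difference between the F86 tumors and WT. Differences over all 4 tumors draw in part on that comparison, and calls in both lines require it.

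The tumors differed from WT at 3080 genes, of which 1924 were higher (14.9% of the genes tested) and 1156 lower (8.94%). A change of at least 2-fold was found for 247 of the higher and 348 of the lower genes. The 4 tumors and the 3 WT arrays did not overlap for 5171 genes (40% of the genes tested), among them 2991 of the 3080 called. The median difference over all genes tested was 0.051. With each array shifted to 1 common median the split was 2340 higher and 885 lower. The count of 3080 was 1677 without WT1, 1664 without WT2 and 1971 without WT3.

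Each founder line was then set against WT on its own. In the F47 tumors 2258 genes were higher (17.5%) and 1725 lower (13.3%). In the F86 tumors 896 genes were higher (6.93%) and 471 lower (3.64%). Changes in the same direction passed the test in both lines for 1044 genes, 641 higher (4.96%) and 403 lower (3.12%), and all 1044 were also called over the 4 tumors. Among the genes changed at least 2-fold over the 4 tumors, 172 of the 247 higher and 231 of the 348 lower ones were called in both lines. Of the other called genes, 1677 passed in the F47 tumors alone, 150 in the F86 tumors alone and 209 in neither line by itself. A call in 1 line does not show that the lines differ: the difference between the lines passed for 98 of the 1677 and for 15 of the 150. These counts depend on single arrays. The 1044 became 436 without tumor 3, 268 without tumor 4, 526 without WT1, 499 without WT2 and 644 without WT3. The F47 count of 3983 became 1886 without tumor 2, and the F86 count of 1367 became 538 and 363 without tumors 3 and 4 and 703, 672 and 854 without WT1, WT2 and WT3. Where 1 tumor of a line was left, its spread was taken from the other groups.

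**Figure D1:**
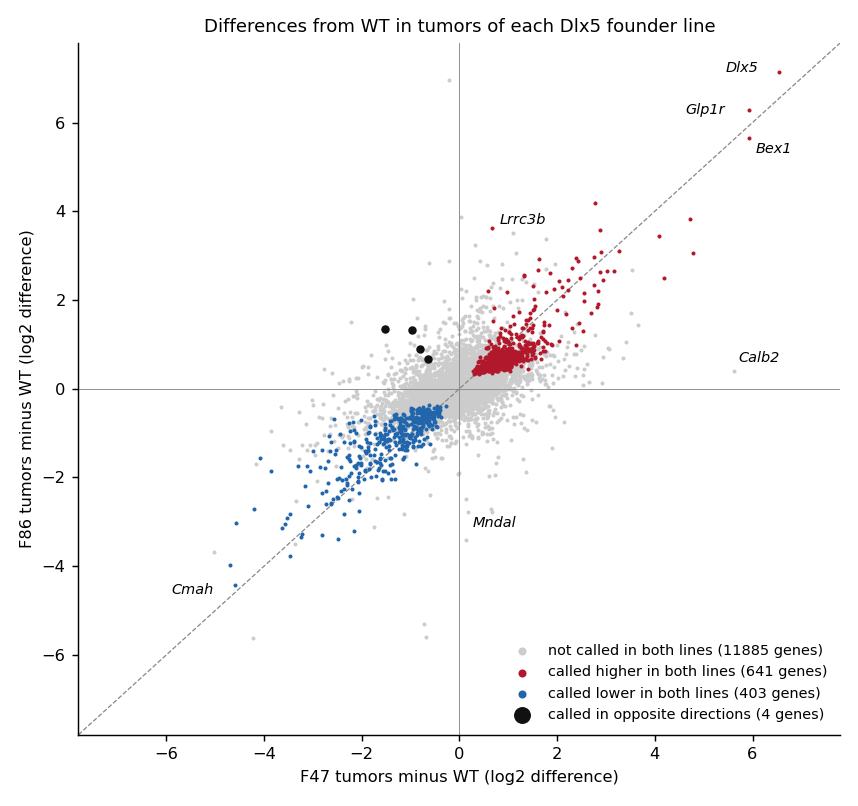
Difference from WT in the F47 tumors (x axis, log2) against that in the F86 tumors (y axis, log2) for the 12933 genes tested, with the 641 genes called higher in both lines in red, the 403 called lower in both in blue and the 4 called in opposite directions in black. Dlx5, Glp1r and Bex1 lie at the top right, far from the other genes. The dashed diagonal marks equal differences, and both axes share the 3 WT arrays.

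Dlx5 was the gene with the largest rise. It lay at 12.68 and 11.93 in the F47 tumors and at 12.97 and 12.83 in the F86 tumors, against 5.82, 5.76 and 5.70 in WT. All 3 WT values were below the array median, and the difference was 6.84 ± 0.25 (115-fold, adjusted p = 1.42e-09). The difference between the lines, -0.59 ± 0.29, did not pass (adjusted p = 0.273). The neighbouring homeobox gene Dlx6 showed no such rise: it lay at 5.82 and 6.01 in the F47 tumors and at 5.56 and 5.60 in the F86 tumors, against 5.50, 5.80 and 5.59 in WT (0.12, adjusted p = 0.736). Akt2 lay at 9.58 and 9.61 in the F47 tumors and at 10.11 and 10.04 in the F86 tumors, against 9.74, 9.91 and 9.76 in WT. The WT values sit between those of the lines, the difference over the 4 tumors was 0.03 ± 0.13 (adjusted p = 0.880), and the F47 tumors were lower than the F86 tumors by -0.48 ± 0.11 (adjusted p = 0.0258). Whether the Akt2 feature reads the transgene transcript is not stated in the sources used here.

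Dlx5 was followed by 9 other genes in the set of the 10 highest above WT in both lines. Glp1r, the receptor for the incretin hormone GLP-1, lay at 11.74 and 11.27 in the F47 tumors and at 12.01 and 11.73 in the F86 tumors, against 5.83, 5.48 and 5.43 in WT. Its difference was 6.11 ± 0.28 (69.1-fold, adjusted p = 1.88e-08). Bex1, a small adaptor-like protein of neurons, lay at 10.39 and 11.60 (F47) and 10.54 and 10.94 (F86), against 4.67, 5.24 and 5.32 in WT, a difference of 5.79 ± 0.33 (55.3-fold, adjusted p = 1.16e-07). For both genes the tumors and WT are more than 4 log2 units apart and the WT arrays lie below the array median. Grik1, a kainate-type glutamate receptor subunit, lay at 10.31, 9.36, 8.44 and 9.44 in tumors 1 to 4, against 5.34, 5.04 and 4.96 in WT, with a difference of 4.28 ± 0.82 (adjusted p = 0.00264). Nnat, an imprinted gene for a small membrane protein of the developing brain, lay at 12.50 and 12.27 in the F47 tumors and at 10.20 and 11.15 in the F86 tumors, against 7.83, 7.77 and 7.21 in WT (3.92 ± 0.58, adjusted p = 5.73e-04). Both F47 tumors were above both F86 tumors for Nnat, but the difference between the lines did not pass (adjusted p = 0.147).

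Zdhhc2, a palmitoyltransferase, was higher by 3.76 ± 0.30 (adjusted p = 3.80e-06). Mboat2, a lysophospholipid acyltransferase, was higher by 3.19 ± 0.39 (adjusted p = 1.45e-04) and Adamts20, a secreted metalloprotease, by 3.23 ± 0.40 (adjusted p = 1.69e-04). Greb1l, a coregulator related to the estrogen-regulated gene Greb1, was the most even of this set, at 8.73, 8.71, 9.00 and 8.81 in tumors 1 to 4, against 5.76, 5.72 and 5.98 in WT (3.00 ± 0.49, adjusted p = 0.00108). Mt2, a metallothionein that binds zinc and copper, was uneven. It lay at 10.66, 11.02, 7.96 and 10.38 in tumors 1 to 4, so tumor 3 stood far below the others, against 6.62, 6.61 and 6.77 in WT (3.34 ± 0.52, adjusted p = 8.19e-04). None of these 10 rises lost its call when any 1 array was left out.

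**Figure D2:**
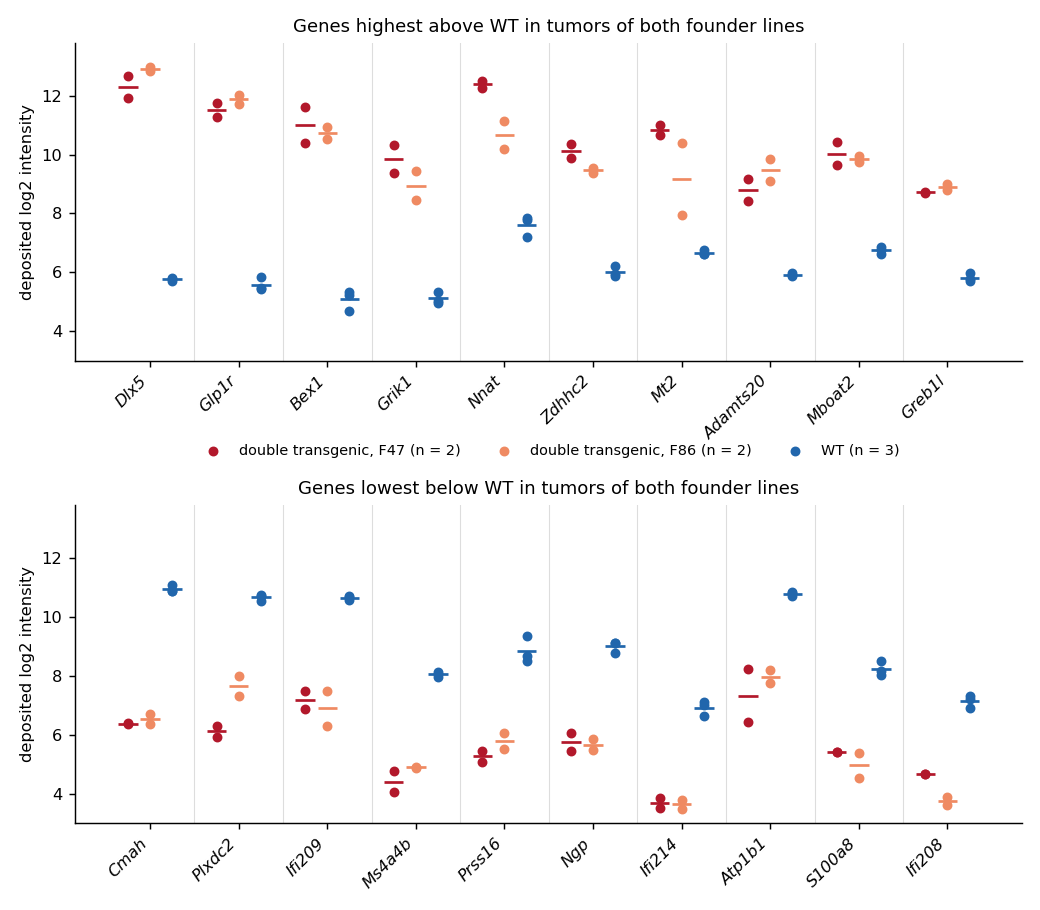
Deposited log2 intensity on each array for the 10 genes highest above WT (upper panel) and the 10 lowest below WT (lower panel) among those called in both founder lines, in F47 tumors, F86 tumors and WT from left to right; points are arrays and bars are means. Tumors and WT do not overlap for any of the 20 genes, which the rule for choosing them required.

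The gene with the largest fall in both lines was Cmah, the hydroxylase that makes N-glycolylneuraminic acid from the sialic acid N-acetylneuraminic acid. It lay at 6.39 and 6.35 in the F47 tumors and at 6.35 and 6.70 in the F86 tumors, against 10.89, 11.09 and 10.89 in WT. The 4 tumors were close to the array median and the difference was -4.51 ± 0.21 (22.8-fold lower, adjusted p = 1.88e-08). Plxdc2, a transmembrane protein with a plexin domain, lay at 5.92 and 6.30 (F47) and 7.31 and 7.99 (F86), against 10.55, 10.73 and 10.74 in WT. Its fall of -3.80 ± 0.37 over the 4 tumors (adjusted p = 2.36e-05) was larger in the F47 than in the F86 tumors, with a difference between the lines of -1.54 ± 0.26 (adjusted p = 0.00835). Atp1b1, the beta subunit of the sodium pump, lay at 6.42 and 8.24 (F47) and 7.75 and 8.20 (F86), against 10.81, 10.86 and 10.70 in WT (-3.14 ± 0.60, adjusted p = 0.00276). Ms4a4b, a tetraspanning protein of mature T cells, lay at 4.04, 4.78, 4.86 and 4.92 in tumors 1 to 4, against 8.06, 8.12 and 7.96 in WT (-3.40 ± 0.29, adjusted p = 7.42e-06). Prss16, the thymus-specific serine protease of cortical thymic epithelium, and Ngp and S100a8, granule and cytosol proteins of neutrophils, also stood among the 10 lowest and are given below with their cell type lists. None of these falls lost its call when any 1 array was left out.

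The remaining 3 of the 10 lowest genes, Ifi209, Ifi214 and Ifi208, belong to the Ifi200 family, interferon-inducible genes that lie side by side on chromosome 1. Ifi209 lay at 7.50 and 6.89 in the F47 tumors and at 6.31 and 7.48 in the F86 tumors, against 10.69, 10.59 and 10.70 in WT (-3.62 ± 0.31, 12.3-fold lower, adjusted p = 6.13e-06). Ifi214 lay at 3.85, 3.52, 3.49 and 3.79 in tumors 1 to 4, against 7.11, 6.63 and 7.02 in WT (-3.26 ± 0.25, adjusted p = 2.77e-06). Ifi208 lay at 4.65 and 4.67 (F47) and 3.62 and 3.90 (F86), against 7.22, 7.30 and 6.91 in WT (-2.94 ± 0.24, adjusted p = 4.25e-06). The tumors were far below the array median for the last pair, so the size of those folds is uncertain. Another member, Ifi213, which lies between Ifi214 and Ifi209, fell as well, to 6.29, 5.60, 5.90 and 6.22 in tumors 1 to 4, against 8.21, 8.25 and 8.49 in WT (-2.31 ± 0.28, adjusted p = 1.45e-04, called in both lines). The other members looked at did not share this fall. Ifi207 differed from WT by -0.24 ± 0.26 (adjusted p = 0.559), Ifi205 by -0.01 ± 0.45 (adjusted p = 0.995) and Ifi204 by 0.92 ± 0.63 (adjusted p = 0.321). Mndal lay at 8.66 and 8.15 in the F47 tumors but at 4.98 and 5.95 in the F86 tumors, against 8.28, 8.03 and 8.41 in WT. Ifi213, Ifi207, Ifi205 and Ifi204 were chosen after their values were seen, as the remaining tested genes with symbols of the Ifi200 series. Family members with symbols of another kind, other than Mndal, were not looked for. Genes of this family resemble each other in sequence, so that features may share signal.

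**Figure D3:**
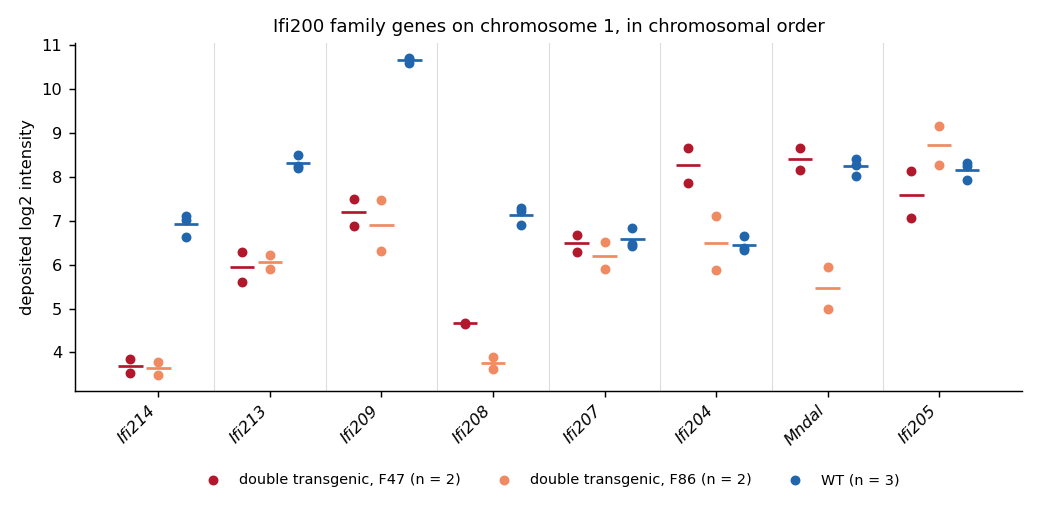
Deposited log2 intensity on each array for 8 tested Ifi200 family genes, chosen by symbol and shown in their order on chromosome 1. F47 tumors, F86 tumors and WT stand from left to right. Points are arrays and bars are means. The first 4 genes are lower in all 4 tumors than in any WT array, and Mndal is lower in the F86 tumors alone.

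The 100 bases before the annotated starts of 6 of these genes are shown. They are RefSeq sequences on GRCm38.p6, 5′ to 3′ on the strand of the gene, and capitals mark 2 copies of GAAA separated by any 2 bases (NN), a spacing found in interferon-stimulated response elements, searched on both strands.
Ifi214, chr1:173535958-173536057, minus strand: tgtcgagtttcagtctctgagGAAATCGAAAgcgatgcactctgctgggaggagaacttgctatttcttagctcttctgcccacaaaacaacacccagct
Ifi213, chr1:173599273-173599372, minus strand: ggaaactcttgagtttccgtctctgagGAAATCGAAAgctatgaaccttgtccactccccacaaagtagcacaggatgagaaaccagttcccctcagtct
Ifi209, chr1:173630759-173630858, plus strand: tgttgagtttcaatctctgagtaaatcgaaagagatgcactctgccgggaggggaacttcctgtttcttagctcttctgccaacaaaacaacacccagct
Ifi208, chr1:173673565-173673664, plus strand: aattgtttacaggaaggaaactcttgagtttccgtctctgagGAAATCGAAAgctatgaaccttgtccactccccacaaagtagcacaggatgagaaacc
Ifi207, chr1:173741810-173741909, minus strand: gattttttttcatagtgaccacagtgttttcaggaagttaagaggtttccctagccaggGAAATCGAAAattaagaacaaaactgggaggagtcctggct
Mndal, chr1:173880188-173880287, minus strand: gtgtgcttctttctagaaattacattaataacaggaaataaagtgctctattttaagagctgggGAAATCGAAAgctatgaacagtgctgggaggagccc
In the stretches shown, Ifi214 and Ifi209 are nearly the same, and Ifi213 and Ifi208 share a long run of bases. These genes all fell. Ifi207 and Mndal are less like them. The likeness was not tested. The match stood 79, 73 and 58 bases before the start in Ifi214, Ifi213 and Ifi208, which fell. It stood 41 and 36 bases before the start in Ifi207 and Mndal, which did not fall in both lines. Ifi205, which did not fall either, had its match 134 bases before the start, outside the stretch shown above for the others. Ifi209, which fell, had no match within 250 bases before its start. Among genes with a promoter sequence, GAAA repeated after any 2 bases occurred in those 250 bases for 1.40% of the 500 called higher in both lines, 4.62% of the 303 called lower in both and 2.68% of all 10091 tested. A match is a run of letters and not a measured site.

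The study's own genes are Notch receptors, their targets and the insulin receptor substrate Irs2. Myc, the growth-promoting transcription factor, lay at 10.96, 11.10, 11.34 and 11.01 in tumors 1 to 4, against 9.54, 9.61 and 9.73 in WT (1.48 ± 0.23, 2.78-fold, adjusted p = 7.87e-04), and rose in both lines. Ccnd1, cyclin D1 of the G1 phase, lay at 9.88 and 10.45 (F47) and 8.99 and 9.48 (F86), against 7.26, 7.38 and 7.37 in WT (2.36 ± 0.49, 5.14-fold, adjusted p = 0.00408), and also rose in both. Both genes were higher in 4 of 4 tumors than in any WT array. Notch1 lay at 11.43 and 11.69 in the F47 tumors and at 9.60 and 10.07 in the F86 tumors, against 10.51, 10.36 and 10.51 in WT. The F47 tumors were above and the F86 tumors below WT, and neither the difference from WT over 4 tumors (0.24 ± 0.68, adjusted p = 0.839) nor that between the lines (1.73 ± 0.78, adjusted p = 0.233) passed. Notch3 lay at 9.73, 8.93, 7.41 and 8.59 in tumors 1 to 4, against 8.44, 8.24 and 8.47 in WT (0.28 ± 0.65, adjusted p = 0.799). Hes1, a repressor induced by Notch, lay at 8.21 and 8.93 (F47) and 6.67 and 7.34 (F86), against 6.76, 6.44 and 6.84 in WT. It passed in the F47 tumors (1.89, adjusted p = 0.0379) but not over the 4 tumors (1.11 ± 0.61, adjusted p = 0.208), and the difference between the lines did not pass (adjusted p = 0.227). Irs2 differed by -0.78 ± 0.33 (adjusted p = 0.0976), and by -1.03 without tumor 1 (adjusted p = 0.0331). Of the 15 tested genes of a list of Notch receptors and targets, 1 was higher (Myc) and 2 lower, and the list's median was 0.09. Of all genes tested 14.9% were higher and 8.94% lower. The lower pair was Il2ra, the alpha chain of the interleukin-2 receptor (-3.42 ± 0.88, adjusted p = 0.0129), and Lfng, the Fringe glycosyltransferase that modifies Notch (-1.60 ± 0.29, adjusted p = 0.00174).

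Counts for the lists of growth and biosynthesis are read against the shares of all genes tested, 14.9% called higher and 4.96% called higher in both lines. In the list of Myc and ribosome biogenesis, 14 of 18 tested genes were higher and none lower (median 0.77), and 12 of the 18 were higher in both lines. Gnl3, a nucleolar GTPase, lay at 10.42 and 10.73 (F47) and 10.12 and 10.24 (F86), against 9.30, 9.01 and 9.24 in WT (1.19 ± 0.14, adjusted p = 1.24e-04), and Polr1b, a subunit of RNA polymerase I, was higher by 1.10 ± 0.16 (adjusted p = 4.16e-04). Of 20 genes of nucleotide, serine and one-carbon synthesis, 17 were higher, 9 of them in both lines (median 0.84). Psat1, of serine synthesis, was higher by 1.25 ± 0.16 (adjusted p = 2.38e-04), Shmt2, the mitochondrial serine hydroxymethyltransferase, by 1.20 ± 0.22 (adjusted p = 0.00215) and Ctps, CTP synthase, by 1.15 ± 0.17 (adjusted p = 5.33e-04). In the glycolysis list 10 of 15 genes were higher and none lower (median 0.87), 7 of them in both lines. Tpi1, triosephosphate isomerase, lay at 11.82 and 11.91 in the F47 tumors and at 10.78 and 11.08 in the F86 tumors, against 9.55, 9.50 and 9.64 in WT (1.83 ± 0.23, adjusted p = 1.73e-04). Both lines were above WT for Tpi1 and the F47 tumors were above the F86 tumors (0.93 ± 0.17, adjusted p = 0.0123). Pgam1, phosphoglycerate mutase, showed the same order, with 1.43 ± 0.24 over WT (adjusted p = 0.00121) and 0.88 ± 0.21 between the lines (adjusted p = 0.0377).

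Of 6 tested polyamine and iron genes 4 were higher, 3 of them in both lines, and none lower (median 0.87). Tfrc, the transferrin receptor, lay at 11.58, 11.43, 11.34 and 11.24 in tumors 1 to 4, against 9.54, 9.49 and 9.50 in WT (1.88 ± 0.18, 3.69-fold, adjusted p = 2.36e-05). Odc1, ornithine decarboxylase, was higher by 1.38 ± 0.14 (adjusted p = 3.32e-05) and Srm, spermidine synthase, by 1.20 ± 0.21 (adjusted p = 0.00152), and all 3 passed in both lines. In the list of amino acid uptake and ATF4 targets 5 of 17 genes were higher, 2 of them in both lines, 1 was lower and 11 were not called (median 0.51). The count of 5 was 2 without WT1, 2 without WT2, 3 without WT3 and 3 without tumor 2. Slc7a5, the large neutral amino acid transporter, was higher by 1.44 ± 0.22 (adjusted p = 7.37e-04) and Slc7a1, for cationic amino acids, by 0.97 ± 0.20 (adjusted p = 0.00393). Slc7a11, the cystine/glutamate exchanger, went the other way, at 5.18 and 5.07 (F47) and 7.08 and 5.89 (F86), against 9.96, 10.33 and 10.17 in WT (-4.35 ± 1.10, adjusted p = 0.0119). Its fall passed in the F47 tumors but not in the F86 tumors (adjusted p = 0.0909). Of 17 genes of cholesterol and fatty acid synthesis 7 were higher and none lower (median 0.79), with 3 higher in both lines, among them Fdft1, squalene synthase (0.98 ± 0.19, adjusted p = 0.00265). That count was 3 without WT1, 3 without WT2 and 11 without tumor 3. In the heat shock list 6 of 11 genes were higher and 1 was lower (median 0.74), with 3 higher without WT2. Hspa1a, an inducible Hsp70 gene, was higher by 1.92 ± 0.37 (adjusted p = 0.00269). It has a near-identical copy, Hspa1b, and their signals may not be separate.

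Genes of DNA replication rose mainly in the F47 tumors. Of 20 tested genes 15 were higher over the 4 tumors and none lower (median 0.58), against the 14.9% of all genes called higher. All 20 were called higher in the F47 tumors (median 0.88), where 17.5% of all genes tested were higher. In the F86 tumors 2 were higher (median 0.29), a count near the 6.93% of all genes called higher there. The difference between the lines passed for 10, each higher in the F47 tumors. Of all genes tested 1.56% were higher in F47 than in F86 tumors. Cdc6, which loads the replicative helicase, lay at 9.96 and 9.81 in the F47 tumors and at 9.01 and 8.98 in the F86 tumors, against 8.54, 8.57 and 8.80 in WT. Its difference between the lines was 0.89 ± 0.15 (adjusted p = 0.00739). Over the 4 tumors Cdc6 was higher by 0.80 ± 0.21 (adjusted p = 0.0149), a call lost without WT1 (adjusted p = 0.0624) and without WT2 (adjusted p = 0.0586). Orc1, of the origin recognition complex, and Pole, a DNA polymerase epsilon subunit, were the 2 called in both lines. The count of 15 was 7 without WT1 and 6 without WT2. In the mitosis and spindle list 6 of 20 genes were higher (median 0.30), none of them in both lines. Bub1b, a spindle checkpoint kinase, was higher by 0.85 ± 0.21 (adjusted p = 0.0112) and by 0.79 ± 0.19 in the F47 over the F86 tumors (adjusted p = 0.0353). This count was 3 without tumor 2, 3 without WT1 and 2 without WT2. In the DNA repair and checkpoint list 12 of 18 genes were higher (median 0.61), 3 of them in both lines, including Nbn, of the double-strand break sensor (0.93 ± 0.11, adjusted p = 1.27e-04). Here the count was 7 without WT1 and 7 without WT2. Of the G1 cyclins, kinases and inhibitors 4 of 15 were higher and 2 lower (median 0.29). Cdk6, the kinase partner of D cyclins, was higher by 1.19 ± 0.19 (adjusted p = 9.34e-04) in both lines, while Ccnd3, cyclin D3 of cortical thymocytes, was lower by -1.25 ± 0.30 (adjusted p = 0.00903).

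**Figure D4:**
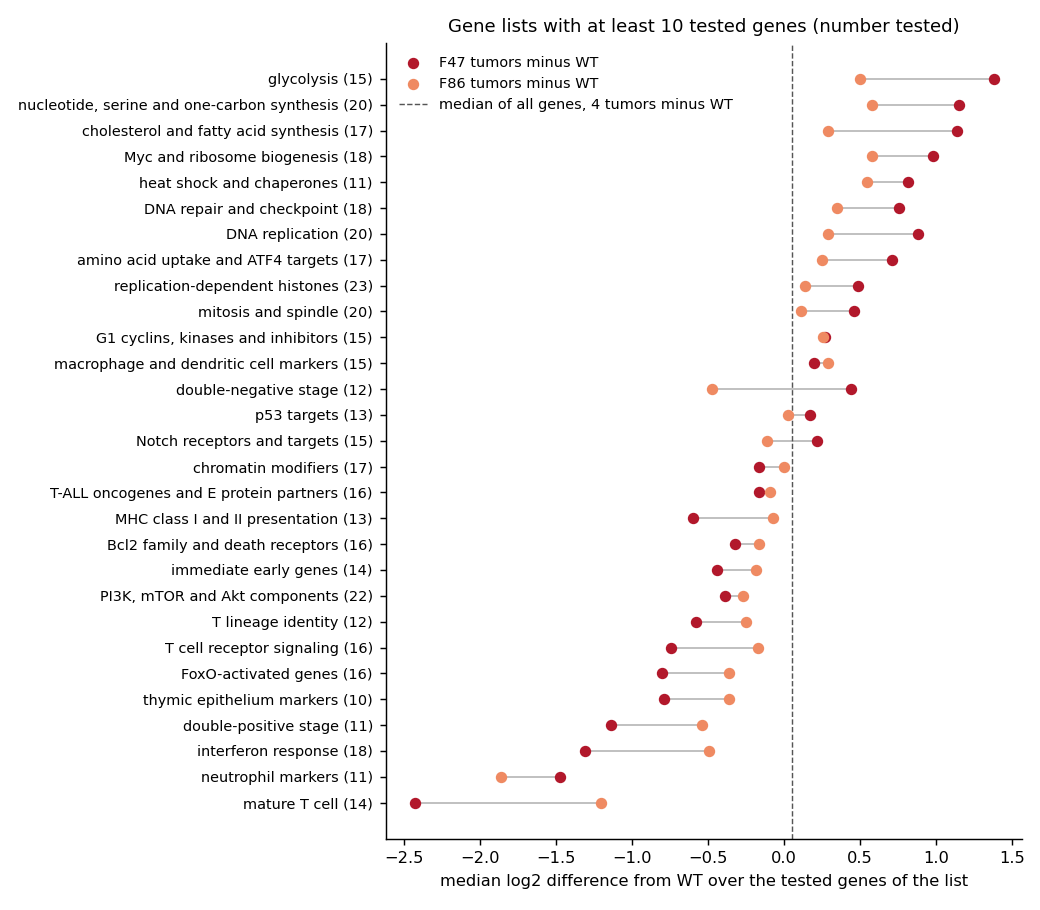
Median log2 difference from WT over the tested genes of each list with at least 10 of them (number tested in brackets), in F47 tumors (dark) and F86 tumors (light), with the median of all genes, 0.051, as a dashed line. The glycolysis and biosynthesis lists lie above it and the mature T cell, neutrophil and interferon lists below it in both lines, and most lists lie farther out in the F47 tumors. Both values of a list share the 3 WT arrays, and the lists were drawn up with earlier results of these data known.

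The labelled T cell origin was checked against T lineage genes. Of 12 tested genes none was higher and 2 were lower, where 8.94% of all genes tested were lower: Ptprc, the CD45 phosphatase (-0.58 ± 0.20, adjusted p = 0.0491), and Cd3g, a chain of the T cell receptor complex (-0.42 ± 0.11, adjusted p = 0.0165). Neither call held without WT2 (adjusted p = 0.126 and 0.0609) or WT3 (0.130 and 0.0636), and that of Ptprc was also lost without WT1 (adjusted p = 0.103), tumor 1 (0.0895) or tumor 2 (0.108). Cd3e differed by -0.16 and Thy1, a surface marker of thymocytes, by 0.17, neither of which passed. The list's median was -0.44. It was -0.58 in the F47 tumors, where 5 of the 12 were lower, and -0.25 in the F86 tumors, where none was called. The difference between the lines passed for 1 of the 12, Cd5, which is given below. Of 11 double-positive stage genes 2 were lower over the 4 tumors (median -0.84), a count within about 1 gene of that share over all genes. They were Rag2, of the antigen receptor recombinase, and Arpp21, a phosphoprotein of double-positive thymocytes. In the F47 tumors 7 of the 11 were lower (median -1.14), where 13.3% of all genes tested were lower. In the F86 tumors 1 was lower (median -0.54), where 3.64% of all genes were. The difference between the lines passed for 1 of the 11. Rag2 lay at 8.72 and 8.83 in the F47 tumors and at 7.70 and 7.74 in the F86 tumors, against 10.84, 10.92 and 11.02 in WT (-2.68 ± 0.45, adjusted p = 0.00128), and fell in both lines. Arpp21 was lower by -1.16 ± 0.27 (adjusted p = 0.00722). Of 12 double-negative stage genes 4 were lower, and 2 without WT1, WT2 or WT3. The list did not fall as a set: its median was 0.15, with 0.44 in the F47 and -0.47 in the F86 tumors. In the F47 tumors 1 of its genes was higher and 3 were lower. Il2ra, which marks part of that stage, lay at 6.72, 8.34, 7.04 and 7.75 in tumors 1 to 4, against 10.92, 10.80 and 10.94 in WT, and its fall, given above, passed in the F47 tumors but not in the F86 tumors (adjusted p = 0.0556).

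The mature T cell list had the lowest median among the lists with at least 10 tested genes. Of its 14 tested genes 9 were lower, 6 of them in both lines, and none higher (median -1.90), against 8.94% of all genes called lower. Gimap4, a GTPase of lymphocytes, lay at 6.24 and 7.16 (F47) and 7.27 and 8.09 (F86), against 9.84, 9.77 and 10.02 in WT (-2.68 ± 0.52, adjusted p = 0.00290). Ccr7, the chemokine receptor of T cells that enter lymph nodes, lay at 7.38, 7.94, 8.32 and 8.94 in tumors 1 to 4, against 10.36, 10.35 and 10.52 in WT (-2.27 ± 0.32, adjusted p = 4.03e-04). S1pr1, the sphingosine-phosphate receptor needed to leave the thymus, lay at 5.88, 5.74, 5.55 and 6.37, against 8.13, 7.97 and 8.25 in WT (-2.23 ± 0.28, adjusted p = 1.86e-04). Ccr7, S1pr1 and Rag2 are also on the list of genes activated by FoxO transcription factors, which Akt restrains. In that list 6 of 16 tested genes were lower and none higher (median -0.57), 3 of the 6 in both lines, and the count was 3 without WT1 and 3 without WT2. Of 22 components of PI3K, mTOR and Akt signaling 1 was higher and 7 lower (median -0.32). Inpp4b, a phosphatidylinositol 4-phosphatase, lay at 6.85 and 6.23 in the F47 tumors and at 8.22 and 8.04 in the F86 tumors, against 9.41, 9.57 and 9.60 in WT. It fell in both lines (-2.20 ± 0.36 over the 4 tumors, adjusted p = 0.00108) and fell farther in the F47 tumors (-1.60 ± 0.21 between the lines, adjusted p = 0.00227). Pik3cg, a PI3K catalytic subunit of leukocytes, was lower by -1.25 ± 0.24 (adjusted p = 0.00249) in both lines.

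Among 16 genes of the Bcl2 family and death receptors 2 were higher and 6 lower, where 14.9% of all genes tested were higher and 8.94% lower. Bcl2, which opposes apoptosis, lay at 7.28 and 7.05 in the F47 tumors and at 8.91 and 8.82 in the F86 tumors, against 10.47, 10.61 and 10.29 in WT (-2.44 ± 0.57, adjusted p = 0.00768). The F86 tumors lie between the F47 tumors and WT, and the fall passed in the F47 tumors but not in the F86 tumors (adjusted p = 0.0832). Its relative Bcl2l1, which encodes Bcl-xL, was lower by -1.43 ± 0.24 (adjusted p = 0.00115) in both lines, and Fas, the death receptor, by -1.72 ± 0.42 over the 4 tumors (adjusted p = 0.00969).

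Counts of lower genes in the next 3 lists are read against the 8.94% of all genes tested called lower. In the interferon response list 11 of 18 tested genes were lower, 4 of them in both lines, and none higher (median -0.94). The median was -1.31 in the F47 tumors and -0.49 in the F86 tumors, and the count was 7 without WT1 and 7 without WT2. Oas2, which makes the 2-5A signal for RNA decay, lay at 6.71 and 6.86 (F47) and 6.92 and 7.59 (F86), against 8.86, 8.44 and 8.67 in WT (-1.64 ± 0.36, adjusted p = 0.00546). Trim30a, an interferon-induced TRIM protein, lay at 5.91 and 6.15 in the F47 tumors and at 7.89 and 7.92 in the F86 tumors, against 8.80, 8.52 and 8.44 in WT. Its fall of -1.62 ± 0.41 (adjusted p = 0.0116) was lost without WT1 (adjusted p = 0.0524), and the difference between the lines was -1.88 ± 0.19 (adjusted p = 5.69e-04). Of 13 antigen presentation genes 3 were lower. Nlrc5, the transactivator of MHC class I genes, was lower by -1.55 ± 0.22 (adjusted p = 4.79e-04) and Tap1, a peptide transporter, by -0.77 ± 0.12 (adjusted p = 9.75e-04), both in each line. Of 14 immediate early genes 3 were lower, all 3 in both lines, among them Nr4a3, an orphan nuclear receptor induced by T cell receptor signals (-1.68 ± 0.33, adjusted p = 0.00290).

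Markers of other thymic cells differed too, and their part in the results above was not tested. Their counts are read against 14.9% of all genes tested called higher and 8.94% called lower. Of 11 neutrophil markers 9 were lower, 7 of them in both lines, and none higher (median -1.68). Ngp, a neutrophil granule protein, lay at 5.45, 6.07, 5.49 and 5.84 in tumors 1 to 4, against 8.76, 9.13 and 9.13 in WT (-3.30 ± 0.41, adjusted p = 1.74e-04), and S100a8 at 5.42, 5.43, 4.54 and 5.37, against 8.03, 8.52 and 8.18 in WT (-3.05 ± 0.40, adjusted p = 2.33e-04). Of the 11 neutrophil genes 9 were below the array median in all 4 tumors and none in all WT arrays, and the log2 of their summed intensity was 9.11 to 9.38 in the tumors and 10.92 to 11.38 in WT. Of 10 thymic epithelium markers 7 were lower, 3 of them in both lines (median -0.61), a count of 3 without WT1 and 4 without WT3. Prss16 lay at 5.09 and 5.45 (F47) and 5.53 and 6.07 (F86), against 9.37, 8.52 and 8.67 in WT (-3.32 ± 0.26, adjusted p = 2.77e-06). The log2 summed intensity of the epithelium list was 10.11 to 10.70 in the tumors and 11.02 to 11.29 in WT. Of 5 tested NK and cytotoxic markers 2 were lower, each in both lines, and 2 higher, 1 of them in both lines. Nkg7, of cytotoxic granules, was lower by -2.11 ± 0.48 (adjusted p = 0.00699) and the NK receptor chain Klrd1 by -1.67 ± 0.28 (adjusted p = 0.00118). Gzma, granzyme A, lay at 7.87 and 8.76 (F47) and 9.73 and 9.74 (F86), against 7.51, 7.07 and 7.17 in WT (1.78 ± 0.56, adjusted p = 0.0340). Gzma was not called in both lines. Its call over the 4 tumors was lost without any 1 of tumors 2, 3 and 4 and WT1, WT2 and WT3, with adjusted p up to 0.108. Of 15 macrophage and dendritic cell markers 1 was higher and 1 lower (median 0.28), of 5 B cell markers 1 was lower (median -0.71), and of 9 fibroblast and endothelium markers none was called (median -0.09). Their log2 summed intensities in tumors and in WT ran from 11.91 to 12.55 against 11.76 to 12.06 for macrophages and dendritic cells, from 8.39 to 9.80 against 9.71 to 10.17 for B cells, and from 10.55 to 11.48 against 11.13 to 11.27 for fibroblasts and endothelium.

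The F47 and F86 tumors differed from each other at 202 genes higher in F47 (1.56%) and 352 lower in F47 (2.72%). The count of 554 was 83 without tumor 2, 80 without tumor 3 and 141 without tumor 4, and 338, 348 and 349 without WT1, WT2 and WT3. Calb2, the calcium-binding protein calretinin, lay at 10.91 and 8.72 in the F47 tumors and at 4.16 and 5.06 in the F86 tumors, with WT at 4.39, 4.14 and 4.07, and the difference between the lines was 5.20 ± 1.12 (adjusted p = 0.0235). Bnc1, the zinc finger protein basonuclin, lay at 8.57 and 8.15 in the F47 tumors and at 5.46 and 5.69 in the F86 tumors, with WT at 5.23, 5.64 and 5.49 (2.79 ± 0.63, adjusted p = 0.0287). Il10, the anti-inflammatory cytokine, lay at 7.29 and 8.94 in the F47 tumors and at 5.18 and 5.75 in the F86 tumors, with WT at 4.67, 4.98 and 4.66 (2.65 ± 0.58, adjusted p = 0.0245). In these 3 genes the F47 tumors stood above both other sets of arrays. Plod2, a collagen lysyl hydroxylase, was higher in F47 than in F86 tumors by 2.50 ± 0.60 (adjusted p = 0.0364) with the F86 tumors far apart, at 6.24 and 8.62. Mndal (2.94 ± 0.62, adjusted p = 0.0221) and Astx5, a gene of a multicopy family on X (3.43 ± 0.85, adjusted p = 0.0399), differed in another way: the F86 tumors stood below both the F47 tumors and WT, with Astx5 at 8.61 and 8.49 in the F47 tumors and at 5.07 and 5.18 in the F86 tumors.

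Lrrc3b, a leucine-rich repeat membrane protein, differed in the other direction. It lay at 6.70 and 5.82 in the F47 tumors and at 9.39 and 9.04 in the F86 tumors, with WT at 5.57, 5.52 and 5.68, and the difference between the lines was -2.96 ± 0.25 (adjusted p = 1.45e-04). Csn2, the milk protein beta-casein, lay at 5.74 and 5.20 in the F47 tumors and at 7.89 and 9.00 in the F86 tumors, with WT at 6.35, 6.24 and 6.68 (-2.98 ± 0.41, adjusted p = 0.00264). Mitf, a transcription factor of melanocytes and mast cells, and Nrgn, the calmodulin-binding protein neurogranin, were lower in F47 than in F86 tumors by -3.11 ± 0.74 (adjusted p = 0.0352) and -2.93 ± 0.69 (adjusted p = 0.0337). Rnase2a, an eosinophil-type ribonuclease, was uneven in the F86 tumors, at 7.60 and 10.87, with the F47 tumors at 5.25 and 5.59 (-3.82 ± 0.70, adjusted p = 0.0127). Cd5, a brake on T cell receptor signaling, lay at 9.70 and 7.36 in the F47 tumors and at 11.80 and 11.67 in the F86 tumors, with WT at 11.31, 11.29 and 11.31 (-3.21 ± 0.81, adjusted p = 0.0437). Of these 12 genes only Lrrc3b and Csn2 kept their call when any 1 of the 7 arrays was left out. The other 10 all lost it without tumor 2, with adjusted p from 0.0612 (Calb2) to 0.337 (Cd5), and all but Rnase2a also lost it without at least 1 further array.

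**Figure D5:**
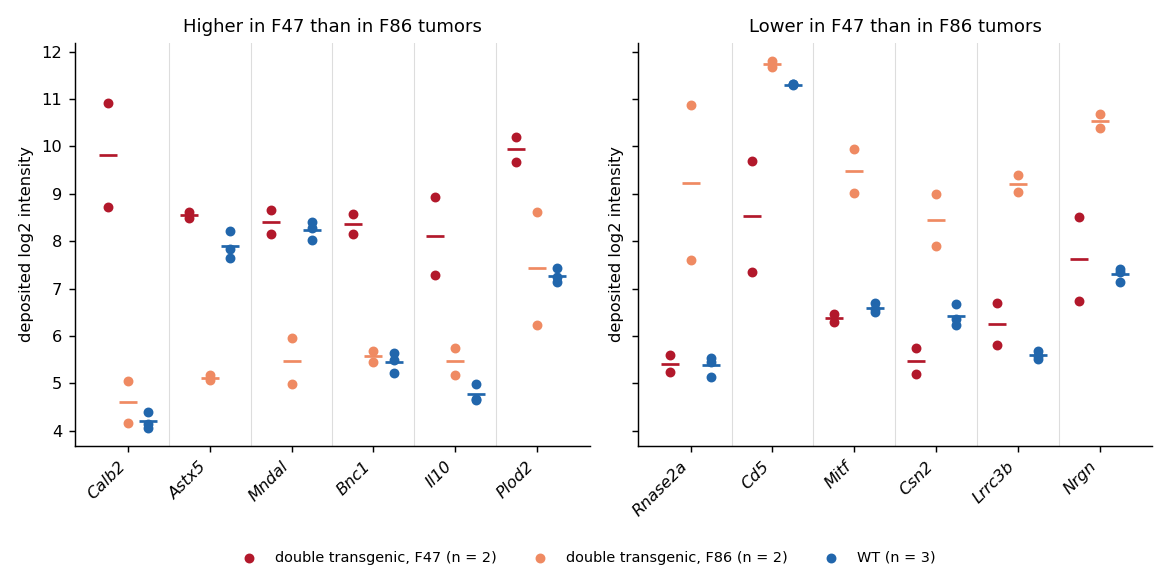
Deposited log2 intensity on each array for the 6 genes with the largest called difference above (left panel) and below (right panel) between F47 and F86 tumors, in F47 tumors, F86 tumors and WT from left to right; points are arrays and bars are means. WT lies near the F86 tumors for Calb2, Bnc1 and Il10, near the F47 tumors for Mndal, Mitf and Lrrc3b, and near the F86 tumors for Cd5.

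In 4 genes the lines were called on opposite sides of WT, lower in the F47 and higher in the F86 tumors. They were named after their values were seen, as all genes of this kind. H2-M2, a nonclassical MHC class I gene, lay at 5.95 and 5.59 in the F47 tumors and at 8.33 and 8.93 in the F86 tumors, against 7.40, 7.04 and 7.42 in WT, with differences from WT of -1.52 ± 0.24 (adjusted p = 5.35e-04) and 1.34 ± 0.24 (adjusted p = 0.00370). Cysltr2, a cysteinyl leukotriene receptor, differed from WT by -0.97 ± 0.28 in the F47 and by 1.32 ± 0.28 in the F86 tumors. Vav3, a guanine nucleotide exchange factor of lymphocyte signaling, differed by -0.80 ± 0.25 and 0.90 ± 0.25, and Ubash3b, a phosphatase that dampens T cell receptor signaling, by -0.64 ± 0.14 and 0.66 ± 0.14, in the same order of lines.

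The double transgenic tumors were also set against Lck-Dlx5 and Lck-MyrAkt2 line 420 tumors, and fewer genes passed than against WT. They were not set against line 72 tumors. Against Lck-Dlx5 tumors 178 genes were higher (1.38%) and 63 lower (0.487%), and against Lck-MyrAkt2 line 420 tumors 16 were higher (0.124%) and 7 lower (0.0541%). At an unadjusted p under 0.05 there were 2686 and 2004 genes. The total of 241 against Lck-Dlx5 ranged from 14 without tumor 4 to 787 without tumor 1, with 676 without tumor 2, 47 without tumor 3, 57 without WT1 and 72 without WT2 or WT3. The total of 23 against line 420 was 665 without tumor 2, 7 without tumor 3, 6 without tumor 4, 8 without WT1, 7 without WT2 and 8 without WT3. With each array shifted to 1 common median the splits were 315 higher and 54 lower against Lck-Dlx5, and 24 higher and 4 lower against line 420. The WT arrays enter these tests through the shared spread alone. Dlx5 itself was higher than in line 420 tumors by 2.32 (adjusted p = 8.31e-04), where it averaged 10.28, and not different by the test from Lck-Dlx5 tumors, where it averaged 11.94 (0.66, adjusted p = 0.148). Dlx6, which did not rise over WT, was lower than in line 420 tumors by -3.12 (adjusted p = 3.36e-06). Glp1r was the only 1 of the 10 genes highest above WT other than Dlx5 that passed in either of these comparisons, at 1.44 above Lck-Dlx5 tumors (adjusted p = 0.0299). Dlx6 was named after its values were seen.

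The median difference of a chromosome's genes from WT, relative to all autosomal genes of the same tumor, lay between -0.093 (chromosome 1, tumor 2) and 0.069 (chromosome 18, tumor 4) on the autosomes. Chromosome 15, which holds Myc, was at 0.012 and 0.041 in the F47 tumors and at 0.029 and -0.002 in the F86 tumors. The 11 tested genes of chromosome Y were at 0.297 and -0.007 in the F47 tumors and at -1.902 and -2.123 in the F86 tumors. These shifts are descriptions without a test. TAATT is the classic motif of the Dlx family. Searched with its reverse complement AATTA from 250 bases before to 50 bases after the start, it occurred in 16.4% of the 500 promoters of genes called higher in both lines, 20.5% of the 303 of genes called lower in both and 16.4% of all 10091.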

How the data were processed

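The authors hybridised RNA from 16 mouse samples to Affymetrix expression arrays and, per the labels, processed them with Affymetrix Expression Console, whose version and whose summarization and normalization settings are not given in the sources used here. The deposited values are log2 intensities, 1 per feature and array, and were used without further scaling. Of 41345 features, 23525 had exactly 1 gene symbol in the platform annotation, 1816 had several and 16004 had none. The brightest feature stood for each of 22184 genes, and the 12933 genes above the array's 50th percentile on at least 3 arrays were tested. limma 3.58.1 under R 4.3.3 (lmFit and eBayes, Benjamini-Hochberg adjustment) took in the 16 arrays together, with 5 groups, or 6 where the double transgenic tumors were split by founder line. Genes called in both lines passed in each line against the shared WT arrays.

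The members and gene lists were chosen with earlier results of these data known. Genes were named by rule: genes the study examined, the 10 highest and 10 lowest genes called in both lines whose tumors and WT do not overlap, the 3 called members of largest difference in each list, and the 6 highest and 6 lowest genes between the lines, leaving out predicted genes, small RNAs, olfactory receptors and antigen receptor segments. Other genes were named after their values were seen. On simulated data with 12933 genes, the double transgenic against WT comparison recovered 90 of 100 genes changed by 1 log2 unit and 97 of 100 changed by 2, with 6 false calls. Recovery in both lines was 75 and 91 of 100. Whether these rates hold for the spread of the real arrays was not tested. No 2 arrays held identical values, and since no source used here gives further detail on replication, p-values measure the spread between these samples. The number of arrays limits the precision. Promoter sequences were matched by Entrez gene identifier to RefSeq sequences on GRCm38.p6, with the first entry taken for each gene. Alternatives covered scaling, the filter, the choice of feature, the arrays fitted, array weights, trended and robust variances, stricter thresholds, the X and Y genes, and leaving out each array.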

Additional observations from a re-analysis of the deposited data

Results flagged for a closer look

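In 5 of 125 named genes, 1 of the 4 tumors lay far from the others, by Dixon's critical value for the share of the range that its gap to the nearest tumor takes up. Chance marks about 1 in 20 groups in this way. The shares were 0.89 for Cmah (tumor 4), 0.836 for Ms4a4b (tumor 1), 0.933 for S100a8 (tumor 3), 0.83 for Bcl2l1 (tumor 2) and 0.983 for Ly6g (tumor 1). Among 21 chromosomes, the shift of chromosome 1 in tumor 2 (0.946), chromosome 6 in tumor 1 (0.886) and chromosome 11 in tumor 4 (0.846) stood apart in the same way.

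A difference between the F47 and F86 tumors passed the limma test for 35 named genes, and 12 of them were chosen by that difference. Those 12 were Calb2 (5.20), Astx5 (3.43), Mndal (2.94), Bnc1 (2.79), Il10 (2.65) and Plod2 (2.50), higher in F47, and Rnase2a (-3.82), Cd5 (-3.21), Mitf (-3.11), Csn2 (-2.98), Lrrc3b (-2.96) and Nrgn (-2.93), lower in F47. Of the others, the F47 tumors were higher for the replication, repair and mitosis genes Cdc6 (0.89), Orc1 (0.54), Pole (0.55), Exo1 (0.73) and Bub1b (0.79), for the histone gene H2bc14 (1.08), for the glycolysis genes Tpi1 (0.93) and Pgam1 (0.88), and for Slc7a5 (0.89), Hspa1b (1.61), Ifi208 (0.90) and Fabp4 (2.21). They were lower for the signaling genes Akt2 (-0.48), Inpp4b (-1.60), Pik3cd (-1.34), Vav1 (-0.58), Tnik (-1.37) and Lats2 (-1), and for Plxdc2 (-1.54), Id3 (-2.00), Trim30a (-1.88), Zfp36 (-1) and Col1a2 (-1.63). Founder line, sex-linked transcripts and the named MyrAkt2 line cannot be told apart here.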

How the results depend on the processing

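The call for 62 of the 125 named results was the same under every alternative. Requiring an adjusted p under 0.01 left 1351 genes for the double transgenic tumors against WT, 2342 for F47, 488 for F86, 368 in both lines, 87 between the lines, 10 against Lck-Dlx5 and 4 against line 420 tumors, and 5 in place of 12 gene lists with at least 50% of their tested members called in 1 direction. Requiring a log2 difference of at least 1 gave 595, 1099, 466, 281, 281 and 68 genes for the first 6 of these comparisons and 3 lists. Array weights gave 4755 genes against WT, 3829 for F86, 2378 in both lines, 1221 against Lck-Dlx5 and 645 against line 420, and a Notch1 difference of -0.18. A fit of the 7 arrays alone gave 2363 genes for F86, 1763 in both lines (1004 of the 1044 among them) and 1443 between the lines. Against Lck-Dlx5, the count was 369 after a median shift, 605 without the filter on dim genes and 66 above the 75th percentile, and against line 420 it was 15 after quantile normalization.

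Leaving out 1 array at a time, the counts ranged from 1664 to 3420 against WT, 1886 to 3814 for F47, 363 to 1538 for F86, 268 to 1086 in both lines, 80 to 728 between the lines, 14 to 787 against Lck-Dlx5, 6 to 665 against line 420, and 5 to 14 for the lists. The differences of genes that were not called ranged from -0.09 to 0.60 for Notch1, -0.08 to 0.70 for Notch3, -0.06 to 0.12 for Akt2 and -0.21 to 0.01 for Plin1, and changed sign. The cause was not tested. No paired analysis was possible because the labels give the tumors and WT no shared replicate numbers. Levels below the array median leave the size of a fold uncertain.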
